A study of Danio rerio with 20 samples.

Results

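The second guides against tlr4ba and tlr4bb were each read in zebrafish melanomas numbered fish 1 to fish 4, which gave 8 of the 20 samples of the series. They comprised every fish column, fish 1 to fish 4, of the allele tables of tlr4ba-sg2 and tlr4bb-sg2, and were taken by guide name and fish number and not by any measured value. All 8 came from tumours labelled as TLR4 knockouts. The tumours had been raised by TEAZ, in which transgenes are electroporated into the skin of adult fish, and were dissected from fish picked at random. Cells positive for tdTomato and for Hoechst, a DNA dye, had been sorted before DNA was extracted. The fish genotype, age, transgenes and Cas9 source are not given in the sources used here. Each sample was 1 amplicon from 1 tumour, with both edited and unmodified reads, and no unedited tissue was analysed here.

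In mammals, TLR4 is the Toll-like receptor that senses bacterial lipopolysaccharide together with its partner MD-2 and starts inflammatory signalling. Zebrafish carry several tlr4 paralogs as neighbouring genes. Cas9 cuts next to a protospacer-adjacent motif (PAM), and cells repair the break with small insertions and deletions. Deletions often join short repeats on the flanks of the cut. An indel whose length is not a multiple of 3 shifts the reading frame. In the gene order of assembly GRCz12tu, tlr4ba, tlr4al and tlr4bb followed each other on the same chromosome. The name tlr4ba is also given there as an older name of tlr4al, and the gene meant by the tlr4ba guide could not be settled.

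The bases at each cut were read from the allele tables and are shown because the alleles below are placed on them. Substitutions were listed at positions -8 to 6, there is no position 0, and the junction of positions -1 and 1 is called the boundary here. At each of the 14 positions exactly 3 bases were listed as substitutions, each with at least 32 reads at tlr4ba-sg2 and 13 at tlr4bb-sg2 summed over fish, and the base never listed was taken as the unmodified one. Bases read in this way ended in NGG at 5 of the 6 guides of the series. The capitals mark positions 4 to 6, which read TGG at both sites and so match the NGG motif of Cas9 from Streptococcus pyogenes on the guide's strand.
tlr4ba-sg2: ttactatgtttTGG
tlr4bb-sg2: aaaagatctcaTGG
Outside this motif the sites had the same base at 4 of 11 positions, so their alleles were compared by geometry and not by sequence. Coordinates in the genome and the exon structure around the sites were not analysed here. Frameshift therefore refers to indel length alone.

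The deletions that carried most of the single-deletion reads at tlr4ba-sg2 were listed on the side of the boundary away from the PAM, and 3 of the 4 ended exactly at it as listed. Of these, -2:2D and -4:4D share 1 base with the right flank and can also be placed 1 base across the boundary with the same product, while -5:5D and -4:3D have no other placement. An allele name gives its start position, its length and D (deletion) or I (insertion). In the sequences below the capitals mark the deleted bases.
-2:2D at tlr4ba-sg2: ttactaTGttttgg
-4:4D at tlr4ba-sg2: ttacTATGttttgg
-5:5D at tlr4ba-sg2: ttaCTATGttttgg
-4:3D at tlr4ba-sg2: ttacTATgttttgg

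At tlr4bb-sg2 the main deletions of up to 6 bp were listed on either side of the boundary, and the 21-bp deletion -15:21D, which led in fish 1, ran across it from -15 to 6, beyond the known bases. The 2-bp deletion 1:2D removed 1 copy of a TC repeat that spans the boundary, so it can be placed at -2, -1 or 1 with the same product. The 1-bp deletions 1:1D, -1:1D and -2:1D and the 6-bp deletion had no other placement.
1:2D at tlr4bb-sg2: aaaagatcTCatgg
1:1D at tlr4bb-sg2: aaaagatcTcatgg
-1:1D at tlr4bb-sg2: aaaagatCtcatgg
-2:1D at tlr4bb-sg2: aaaagaTctcatgg
-6:6D at tlr4bb-sg2: aaAAGATCtcatgg

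Depth was 28353 to 612348 reads per sample at tlr4ba-sg2 and 100378 to 322819 at tlr4bb-sg2. Reads counted as Other, which have no described allele, made up 0.105% to 1.21% of all reads of a sample and were left out, and the rest are called classified reads. Fish 1 and 2 were read less deeply than fish 3 and 4 at both sites. The widest 95% Wilson interval of an indel share spanned 0.684 percentage points. PCR reads carry no molecular identifiers and may be copies of the same molecule, so intervals and limits cover counting error only. The labels give the fish number but do not state that fish 1 of both guides is the same animal, which was assumed wherever values are set side by side within a fish.

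Frameshift indels were found at both paralogs, at different levels within a tumour. In fish 1 they made up 62.6% of the classified reads at tlr4ba-sg2 (interval 62.3 to 63.0) and 29.5% at tlr4bb-sg2 (interval 29.3 to 29.8). In fish 2 they made up 4.78% at tlr4ba-sg2 (interval 4.54 to 5.04) and 79.6% at tlr4bb-sg2 (interval 79.4 to 79.9). Fish 3 was low at both sites, with 9.0% at tlr4ba-sg2 (interval 8.92 to 9.08) and 7.01% at tlr4bb-sg2 (interval 6.92 to 7.09). Fish 4 had 0.734% at tlr4ba-sg2 (interval 0.713 to 0.756) and 17.7% at tlr4bb-sg2 (interval 17.6 to 17.9). The higher site was tlr4ba-sg2 in fish 1 and 3 and tlr4bb-sg2 in fish 2 and 4, and the larger share was 2.12, 16.6, 1.29 and 24.2 times the smaller in fish 1 to 4.

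Frameshift shares averaged 19.3% ± 29.1 at tlr4ba-sg2 and 33.5% ± 32.1 at tlr4bb-sg2 (SD, n = 4 each). The difference of -14.2 percentage points was smaller than either SD (exact two-sided permutation p = 0.486, Benjamini-Hochberg p = 1 over the 8 measures compared). Within fish 1 and 2 the difference was -20.9 points, and within fish 3 and 4 it was -7.51 points (exact permutation p = 0.667 in each, with 0.333 the lowest possible). Without tlr4bb-sg2 fish 2 it was 1.19 points.

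Whether a tumour counted as hit at both second-guide sites depended on the level asked for. At 1% of classified reads, 3 of 4 fish carried frameshift indels at both sites, and fish 4 carried them at tlr4bb-sg2 only. At 5% this held for 2 fish, 1 and 3. At 10% it held for fish 1 alone, while fish 2 and 4 passed at tlr4bb-sg2 only and fish 3 at neither site. At 50%, fish 1 passed at tlr4ba-sg2 and fish 2 at tlr4bb-sg2, and 0 fish passed at both. The shares of both sites summed to 92.2%, 84.4%, 16.01% and 18.5% in fish 1 to 4. Since each sum is under 100%, the read shares do not require any chromosome copy to carry frameshifts at both second-guide sites. The smaller share, 29.5%, 4.78%, 7.01% and 0.734%, is the most that could carry them at these 2 sites. This arithmetic takes read shares as shares of copies, and the amplicons were read separately, so joint alleles were not measured. The first guides, read in fish 3 and 4 only, had frameshift shares of 36.8% and 69.5% at tlr4ba-sg1 and 0.039% and 0.040% at tlr4bb-sg1. The counts and limits above leave these out, so they hold for the second-guide sites and not for the genes. With either guide of a gene counted, fish 4 would pass 10% in both paralogs, with 69.5% at tlr4ba-sg1 and 17.7% at tlr4bb-sg2. Fish 3 would pass 10% in tlr4ba only, with 36.8% at tlr4ba-sg1.

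**Figure D1:**
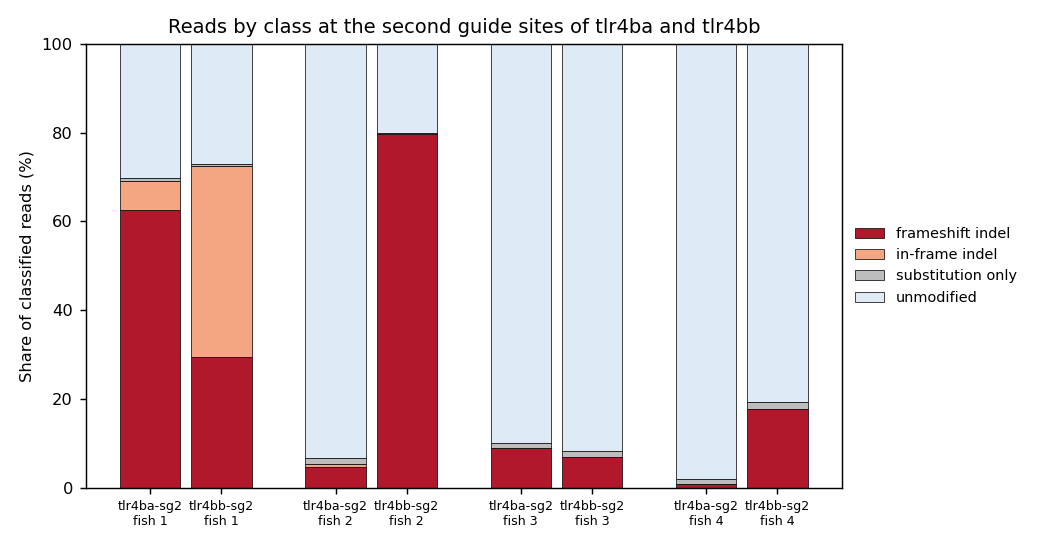
Stacked bars give the share of classified reads (%) that were frameshift indels, in-frame indels, substitution-only reads or unmodified, for each fish, with tlr4ba-sg2 left of tlr4bb-sg2; each bar is 1 sample, with no error bar. Frameshift reads were 62.6% and 29.5% in fish 1, 4.78% and 79.6% in fish 2, 9.0% and 7.01% in fish 3 and 0.734% and 17.7% in fish 4.

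Among classified reads, in-frame indels were frequent in a single tumour and mostly at tlr4bb. In fish 1 they took 6.51% of the classified reads at tlr4ba-sg2 and 42.9% at tlr4bb-sg2. The tlr4ba-sg2 reads were mainly the 3-bp deletion -4:3D at 6.23%, and the tlr4bb-sg2 reads were mainly the 21-bp deletion -15:21D at 36.2% and the 6-bp deletion -6:6D at 6.34%. In the other fish in-frame indels took 0.0021% to 0.606% at tlr4ba-sg2 and 0.0078% to 0.013% at tlr4bb-sg2. As a share of indel reads, frameshift lengths made up 90.6%, 88.8%, 99.96% and 99.7% in fish 1 to 4 at tlr4ba-sg2, against 40.8%, 99.98%, 99.8% and 99.96% at tlr4bb-sg2. The means were 94.8% ± 5.92 at tlr4ba-sg2 and 85.1% ± 29.6 at tlr4bb-sg2 (SD, n = 4 each). Their difference of 9.62 points was smaller than the larger SD only (exact permutation p = 0.943, Benjamini-Hochberg p = 1). Without tlr4bb-sg2 fish 1 the difference was -5.17 points, and within fish 3 and 4 it was -0.061 points, against 19.3 points within fish 1 and 2.

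Each tumour held few alleles at either site. The number at 1% or more of classified reads was 4, 1, 2 and 0 in fish 1 to 4 at tlr4ba-sg2 and 4, 4, 2 and 1 at tlr4bb-sg2. The 3 most abundant alleles held 88.4% to 98.8% of the indel reads of a sample at tlr4ba-sg2 and 92.6% to 99.7% at tlr4bb-sg2. The effective number of indel alleles, the inverse of the summed squared shares, was 2.71, 2.04, 2.11 and 1.90 in fish 1 to 4 at tlr4ba-sg2 and 2.67, 2.16, 1.83 and 1.03 at tlr4bb-sg2. It averaged 2.19 ± 0.356 at tlr4ba-sg2 and 1.92 ± 0.687 at tlr4bb-sg2 (SD, n = 4 each), and the difference of 0.271 was smaller than the larger SD (exact permutation p = 0.514, Benjamini-Hochberg p = 1). It was -0.036 in fish 1 and 2 and 0.577 in fish 3 and 4. Without tlr4bb-sg2 fish 4, in which 1:2D alone held 98.5% of the indel reads, it was -0.026. Alleles of several indels took at most 0.501% of the indel reads of a sample.

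At tlr4ba-sg2, the same deletions recurred in different fish at very different levels. The 2-bp deletion -2:2D had 33.4%, 0.503%, 4.30% and 0.00065% of the classified reads in fish 1 to 4, the last from 4 reads. The 4-bp deletion -4:4D had 4.38% in fish 1 and 4.47% in fish 3, 2 reads in fish 4 and 0 reads in fish 2, which allows up to 0.011%. Fish 1 and 3 thus shared these 2 deletions, although -2:2D was 7.62 times as frequent as -4:4D in fish 1 and 0.962 times in fish 3.

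The 5-bp deletion -5:5D led in fish 2 with 3.66% and in fish 4 with 0.495%, and it had 0.017% in fish 1 and 0.130% in fish 3. Among indel reads it took 67.9% in fish 2 and 67.3% in fish 4. The 1-bp insertion -1:1I had 24.3% in fish 1 and 0.199% in fish 4, with 1 read in fish 2 and 0 reads in fish 3, which allows up to 0.00063%. The in-frame -4:3D was found in fish 1 at 6.23% and in fish 2 at 0.602%, with 0 reads in fish 3 and 4. Of the 5 alleles that reached 1% in a fish, all 5 had 0.1% or more in at least 1 other fish.

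At tlr4bb-sg2, a single allele passed 1% of classified reads in every tumour, and most of the others that passed 1% did so in 1 fish. The repeat deletion 1:2D had 24.6%, 1.07%, 2.27% and 17.5% of the classified reads in fish 1 to 4. It was the only indel allele of this site above 1% in all 4. At tlr4ba-sg2 no allele could be, since all indels of fish 4 together took 0.736% of its classified reads. The 1-bp deletion -1:1D was found at 4.21%, 1.80%, 0.0034% and 0.186% in the same order. The 1-bp deletion 1:1D had 43.1% in fish 2 and 0.334% in fish 1, with 3 reads in fish 3 and 1 in fish 4.

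The other 4 alleles above 1% had 4 reads or fewer in any fish but their own. The 21-bp deletion -15:21D (36.2%) and the 6-bp deletion -6:6D (6.34%) were those of fish 1, the 1-bp insertion -2:1I (32.7%) that of fish 2 and the 1-bp deletion -2:1D (4.67%) that of fish 3. In fish 4, both fish 1 alleles had 0 reads, which allows up to 0.00098%.

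**Figure D2:**
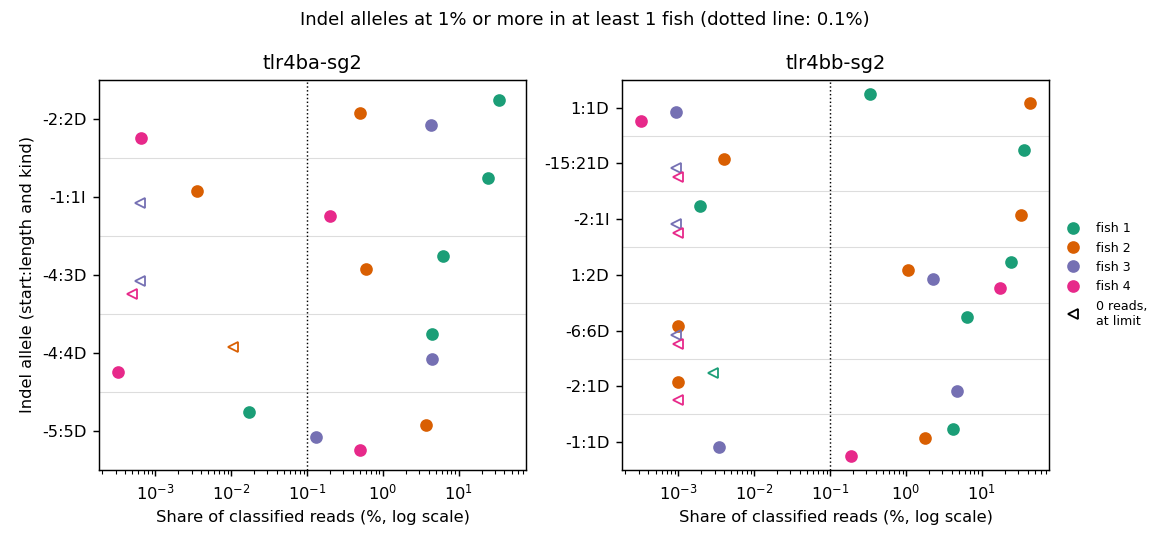
Points give the share of classified reads (%, log axis) of each indel allele that reached 1% in at least 1 fish, with tlr4ba-sg2 in the left panel and tlr4bb-sg2 in the right, coloured by fish; open triangles stand at the limit that 0 reads allow, and the dotted line marks 0.1%. All 5 alleles of tlr4ba-sg2 had points of at least 2 fish right of the line, while 4 of the 7 alleles of tlr4bb-sg2 had 1.

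Recurrent alleles, which passed 0.1% of classified reads in 2 or more fish of a guide, numbered 5 of 8 at tlr4ba-sg2 and 3 of 13 at tlr4bb-sg2. They held 98.9%, 88.4%, 98.8% and 94.4% of the indel reads in fish 1 to 4 at tlr4ba-sg2 and 40.2%, 57.8%, 32.4% and 99.6% at tlr4bb-sg2. No test was made, since the fish of a guide define these alleles together. With 1% in place of 0.1%, 2 alleles recurred at each site and held 54.6%, 9.34%, 97.4% and 0.133% of the indel reads at tlr4ba-sg2 and 39.7%, 3.61%, 32.3% and 99.6% at tlr4bb-sg2. Both thresholds are shares of classified reads, so an allele needs a larger part of the indel reads to pass where indels are rarer. At 1%, tlr4ba-sg2 fish 4, with 0.736% indel reads, had no allele that could pass. The means depended on the rule. They were 95.1% ± 4.92 at tlr4ba-sg2 and 57.5% ± 30.02 at tlr4bb-sg2 with 0.1%, 40.4% ± 44.8 and 43.8% ± 40.3 with 1%, 98.8% ± 0.554 and 57.8% ± 29.9 with at least 10 reads, and 99.2% ± 0.365 and 99.5% ± 0.355 with at least 1 read, in the same order of sites (SD, n = 4 each).

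The overlap between 2 fish was also measured as the summed lower share of each allele among their indel reads. At tlr4ba-sg2 it was highest between fish 2 and 4 (68.3%) and between fish 1 and 3 (54.2%), and it was 2.06% to 27.4% in the other 4 pairs. At tlr4bb-sg2 it was 35.0% between fish 1 and 4, 32.6% between fish 3 and 4 and 32.5% between fish 1 and 3, mostly through 1:2D, and it was 1.43% to 4.12% in the 3 pairs with fish 2. The medians over 6 pairs were 23.0% at tlr4ba-sg2 and 18.3% at tlr4bb-sg2.

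Some 1-bp deletions were present at low levels in every fish. The 3 given here were named for a high minimum share over the fish, which favours a small spread. At tlr4ba-sg2, 1:1D, in a run of 4 T after the boundary, had 0.0071% to 0.012% of the classified reads (3 to 70 reads), and -8:1D had 0.0043% to 0.0083% (2 to 51 reads). At tlr4bb-sg2, -5:1D, at the end of a run of A, had 0.0029% to 0.023% (3 to 74 reads). The highest share was 1.68, 1.95 and 8.07 times the lowest for these 3 alleles, against 23.0 times for 1:2D at tlr4bb-sg2 and 213.5 times for -5:5D at tlr4ba-sg2. For -1:1D at tlr4bb-sg2, also a 1-bp deletion named by this rule, it was 1229 times the lowest. How much of these levels is read error was not tested, since no unedited tissue was read.

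Deletions were mostly 2 to 5 bp long at tlr4ba-sg2 and mostly 1 or 2 bp long at tlr4bb-sg2, apart from fish 1. The read-weighted mean length of alleles made of 1 deletion was 2.39, 4.41, 3.04 and 4.74 bp in fish 1 to 4 at tlr4ba-sg2, against 11.8, 1.09, 1.34 and 1.99 bp at tlr4bb-sg2. The median lengths were 2, 5, 4 and 5 bp at tlr4ba-sg2 and 21, 1, 1 and 2 bp at tlr4bb-sg2. Deletions of 1 bp made up 0.259% to 6.13% of the single-deletion reads at tlr4ba-sg2, and 6.29%, 97.1%, 67.3% and 1.21% in fish 1 to 4 at tlr4bb-sg2. Deletions of 3 to 5 bp made up 24.5%, 87.6%, 51.4% and 93.4% at tlr4ba-sg2 and at most 0.708% in a sample at tlr4bb-sg2. Those of 11 bp or more took at most 0.246% at tlr4ba-sg2, and 50.2% in fish 1 and at most 0.517% in the other fish at tlr4bb-sg2.

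The mean length was 3.65 ± 1.12 bp at tlr4ba-sg2 and 4.07 ± 5.20 bp at tlr4bb-sg2 (SD, n = 4 each), a difference of -0.420 bp (exact permutation p = 1, Benjamini-Hochberg p = 1). Tumour by tumour, tlr4ba-sg2 had the longer mean in fish 2, 3 and 4, by 3.32, 1.70 and 2.75 bp, and the shorter in fish 1, by -9.45 bp. The sign of the difference changed when tlr4bb-sg2 fish 1, which carries the 21-bp allele, was left out. Without it the difference was 2.17 bp (exact permutation p = 0.057, with 0.029 the lowest possible), and the lengths at tlr4ba-sg2 then all lay above those at tlr4bb-sg2. It was -3.07 bp in fish 1 and 2 and 2.23 bp in fish 3 and 4, and 0.53 on the log2 scale.

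**Figure D3:**
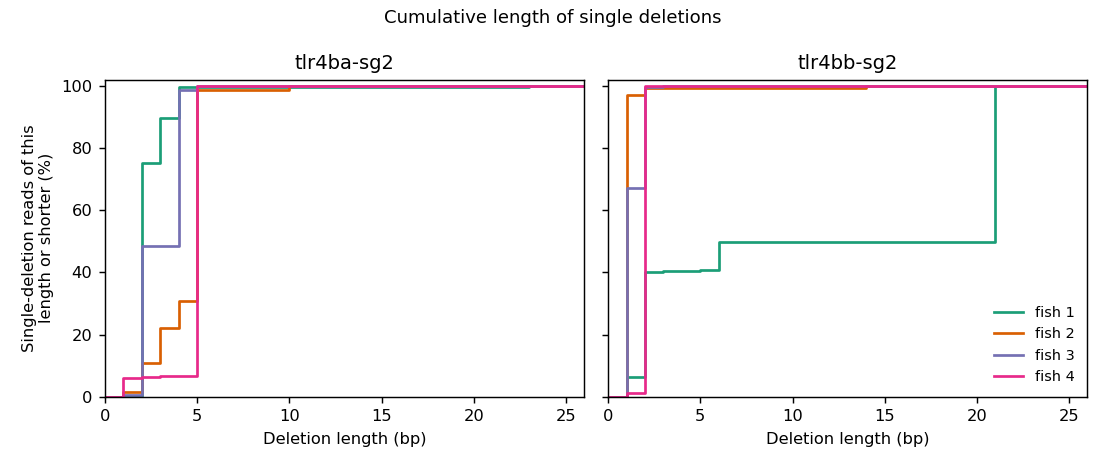
Lines give the cumulative share of single-deletion reads (%) against deletion length (bp) for each fish, with tlr4ba-sg2 in the left panel and tlr4bb-sg2 in the right. The median length was 2 to 5 bp in the 4 tlr4ba-sg2 samples, and at tlr4bb-sg2 it was 21 bp in fish 1 and 1 to 2 bp in the other fish.

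Insertions followed individual alleles. They were counted as indel reads with a net gain of bases. At tlr4ba-sg2 they made up 35.5%, 0.131%, 0.033% and 27.6% of the indel reads in fish 1 to 4, against 0.026%, 41.5%, 0.022% and 0.0018% at tlr4bb-sg2. The shares of fish 1 and 4 at tlr4ba-sg2 were almost all the 1-bp insertion -1:1I, and that of fish 2 at tlr4bb-sg2 was almost all -2:1I, so 0 of 4 fish had insertions above 1% of indel reads at both sites. The inserted base was not given. Alleles with an insertion but no net gain were not counted. They are among the alleles of several indels, which took at most 0.501% of the indel reads of a sample. The difference of means was 5.41 points (15.8% ± 18.4 at tlr4ba-sg2 and 10.4% ± 20.8 at tlr4bb-sg2, SD, n = 4 each; exact permutation p = 0.743, Benjamini-Hochberg p = 1), and it was -1.15 points without tlr4ba-sg2 fish 1.

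As listed, tlr4ba-sg2 deletions removed mostly bases just before the boundary and tlr4bb-sg2 deletions those around it, with the placements of both tables differing as described in the next paragraph. At tlr4ba-sg2 the base at position -2 was missing from 99.6%, 98.4%, 99.4% and 93.7% of the single-deletion reads of fish 1 to 4 and the base at position 1 from 0.294%, 8.76%, 0.213% and 2.40%. At tlr4bb-sg2 the base at position -2 was missing from 59.3%, 0.573%, 67.0% and 0.063%, and the base at position 1 from 85.2%, 95.04%, 32.5% and 98.6%. As listed, the most often missing base was at -2 in all 4 fish at tlr4ba-sg2, and at 1, 1, -2 and 2 in fish 1 to 4 at tlr4bb-sg2.

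The side on which a deletion was listed depended on how the deposited alleles had been placed. Within the 14 known bases, 12 deletion alleles at tlr4ba-sg2 and 7 at tlr4bb-sg2 could be placed in more than 1 way. All 12 were listed at their leftmost placement at tlr4ba-sg2, and all 7 at their rightmost at tlr4bb-sg2. As listed, 99.7%, 91.0%, 99.6% and 96.2% of the single-deletion reads lay wholly left of the boundary in fish 1 to 4 at tlr4ba-sg2, against 14.8%, 4.46%, 67.4% and 1.27% at tlr4bb-sg2, and the groups did not overlap. With every deletion at its leftmost placement, the tlr4bb-sg2 shares were 48.8%, 6.76%, 99.7% and 99.9%, and the groups overlapped. With every deletion at its rightmost placement, the tlr4ba-sg2 shares were 14.9%, 81.6%, 1.73% and 96.1%, and the groups overlapped again. Only alleles with a single placement give the side, such as -5:5D and -4:3D at tlr4ba-sg2, left of the boundary. At tlr4bb-sg2 these include 1:1D, right of it, and -1:1D and -2:1D, left of it. Deletions with several placements made up 85.0% and 98.3% of the single-deletion reads in tlr4ba-sg2 fish 1 and 3. In tlr4bb-sg2 fish 4 they made up 98.7%. The side of most deletion reads is not settled in these samples.

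The mean midpoint of all single deletions, as listed, was -1.32, -2.17, -1.52 and -2.51 bp from the boundary in fish 1 to 4 at tlr4ba-sg2. At tlr4bb-sg2 it was -2.21, 0.436, -0.695 and 0.972 bp. It averaged -1.88 ± 0.553 bp at tlr4ba-sg2 and -0.373 ± 1.41 bp at tlr4bb-sg2 (SD, n = 4 each), and the difference was -1.51 bp (exact permutation p = 0.143, Benjamini-Hochberg p = 0.800). It was -0.863 bp in fish 1 and 2 and -2.15 bp in fish 3 and 4. With all deletions leftmost it was -0.667 bp (exact permutation p = 0.457) and with all rightmost -0.980 bp (exact permutation p = 0.343). Without tlr4bb-sg2 fish 1 it was -2.12 bp as listed (exact permutation p = 0.029, the lowest possible with 4 against 3 samples), in a family of 8 measures and with the placements still opposite.

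**Figure D4:**
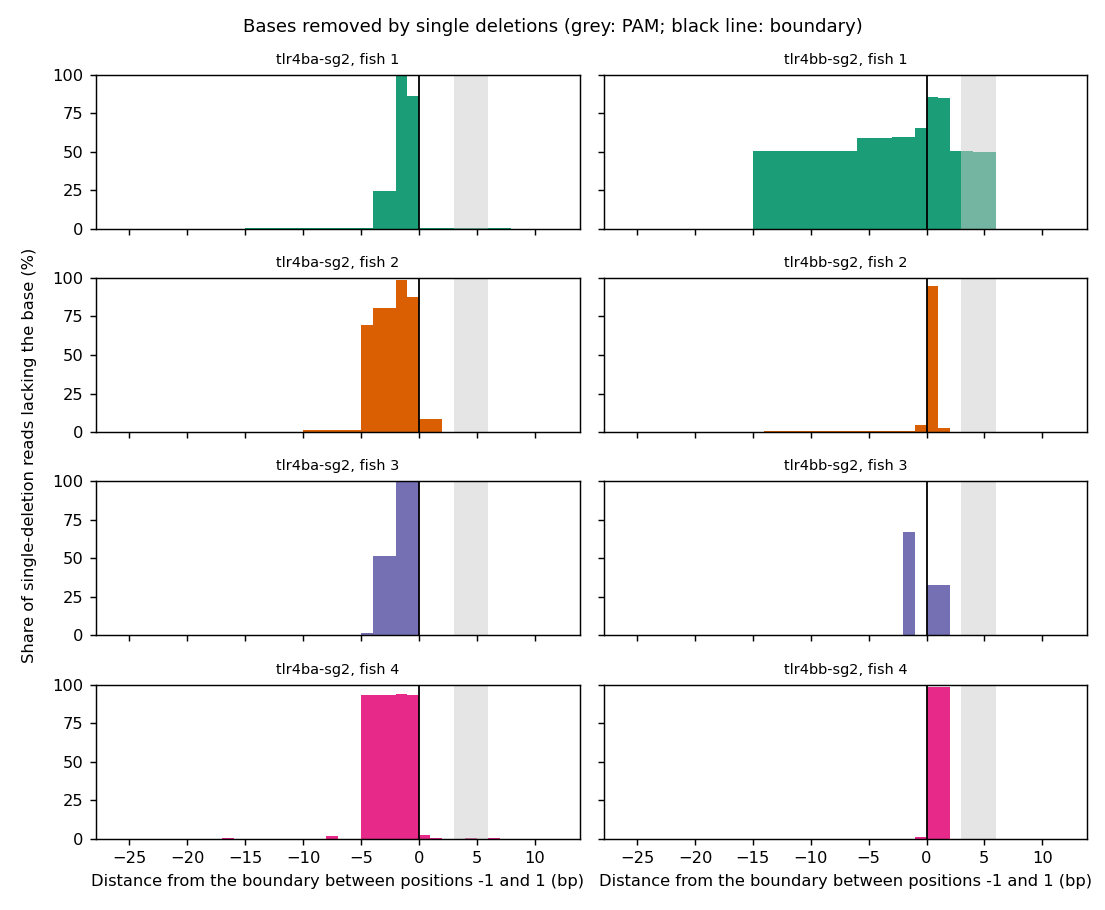
Bars give the share of single-deletion reads (%) that lack each base, against its distance from the boundary between positions -1 and 1 (bp), with 1 row per fish, tlr4ba-sg2 on the left and tlr4bb-sg2 on the right, and the PAM in grey; deletions are drawn as listed, leftmost at tlr4ba-sg2 and rightmost at tlr4bb-sg2. The base at -2 was missing from 93.7% to 99.6% of the reads at tlr4ba-sg2, and the 21-bp deletion of fish 1 at tlr4bb-sg2 reaches across the PAM.

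Most deletion reads reached the boundary in every sample but tlr4bb-sg2 fish 3. The deleted bases touched it in 85.9%, 88.0%, 99.5% and 95.9% of the single-deletion reads of fish 1 to 4 at tlr4ba-sg2, against 99.96%, 99.5%, 32.7% and 99.7% at tlr4bb-sg2. The low value of tlr4bb-sg2 fish 3 came from -2:1D, which lies 1 bp from the boundary and has no other placement. The means were 92.3% ± 6.47 at tlr4ba-sg2 and 82.9% ± 33.5 at tlr4bb-sg2 (SD, n = 4 each), and the difference of 9.39 points was smaller than the larger SD only (exact permutation p = 0.971, Benjamini-Hochberg p = 1). It was -12.8 points in fish 1 and 2, 31.6 points in fish 3 and 4, and -7.37 points without tlr4bb-sg2 fish 3.

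As listed, deletions that took at least 1 base of the PAM made up 0.066% to 0.554% of the single-deletion reads at tlr4ba-sg2. At tlr4bb-sg2 they made up 50.6% in fish 1, through -15:21D, and 0.013% to 0.226% in the other fish. The 1:1D reads at tlr4ba-sg2, 70 in fish 4, can also be placed on the first PAM base and were not counted here. Some deletions within the 14 known bases can be placed in more than 1 way, as they share at least 1 base with a flank. They made up 85.0%, 18.2%, 98.3% and 4.65% in fish 1 to 4 at tlr4ba-sg2, against 34.4%, 2.31%, 32.7% and 98.7% at tlr4bb-sg2. These are lower limits, since placements were not known for deletions that reach beyond those bases, which made up 50.2% of the single-deletion reads of tlr4bb-sg2 fish 1. They were mainly -2:2D and -4:4D in fish 1 and 3 at tlr4ba-sg2, -2:2D (142 reads) and -2:4D (129 reads) in fish 2, and 1:1D (70 reads) and -8:1D (51 reads) in fish 4; -2:4D was picked after its values were seen. At tlr4bb-sg2 they were mainly 1:2D, which shares 2 bases with its flank. At tlr4ba-sg2, -2:2D and -4:4D share 1 base with theirs. How many deletions would share a base by chance was not tested.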

How the data were processed

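Editing was measured by amplicon sequencing of DNA from sorted zebrafish melanoma cells. The authors deposited raw read counts for every allele, in 1 table for each guide with a column for each fish, per the file headers. The submitters' processing notes name R 4.0.5 and build GRCz10. An aligner, an allele caller or a read filter is not given in the sources used here. Each column was tied to its sample by guide and fish number, and 0 columns belonged to no listed sample. Measures were computed with Python 3.11.15, numpy 2.4.6 and scipy 1.17.1. The code for the measures was checked on a small made-up allele table with known answers. The permutation p was checked against that of scipy on random values.

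Net length set the frameshift class and the insertion class, and length and position used alleles of 1 deletion. An exact two-sided permutation test over 70 splits compared each of the 8 measures (smallest p 0.029, threshold 0.05), with Benjamini-Hochberg values over the 8. No count model was run, because the guides cut different sites. Pairing by fish number was an alternative. It assumes that a number means the same animal for both guides, which the labels do not state. Deviations of paired samples could not be correlated across alleles, which differ between sites. Whether fish are separate clutches or batches is not labelled. No pair of fish of a guide was a repeat of the same library (lowest chi-square over its degrees of freedom 298.1). A count of 0 was taken to allow 3 reads.

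Alleles named were those that reached 1% of a sample's classified reads, the most abundant of each sample, and the 3 per guide with the highest minimum share over fish. Members, measures and this rule were chosen with earlier results of these data known. Alternatives removed rare alleles, changed the handling of Other, substitution and multiple-indel reads, scales and position rules, or left out samples; the placement alternatives were chosen after seeing the data.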

Additional observations from a re-analysis of the deposited data

Results flagged for a closer look

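In 6 of 20 groups of 4 samples checked, 1 sample lay far from the other 3. Its gap to the nearest neighbour, divided by the range of the 4 values, exceeded Dixon's 95% critical value. Chance alone would do this in about 1 group in 20 if values were normally distributed, which was not checked. The 20 groups are also not independent, since several measures come from the same alleles. The 6 flags are therefore not read as an excess over chance. At tlr4ba-sg2, fish 1 stood above the others in indel share (69.2%, the next being 9.01%) and in frameshift share of classified reads (62.6%, the next being 9.0%). At tlr4bb-sg2, fish 1 stood below the others in frameshift share of indel reads (40.8%, the next being 99.8%) and above them in mean deletion length (11.8 bp, the next being 1.99 bp), both through -15:21D. Fish 2 at tlr4bb-sg2 stood above the others in insertion share of indel reads (41.5%, the next being 0.026%), through -2:1I. Fish 3 at tlr4bb-sg2 stood below the others in the share of deletion reads that touch the boundary (32.7%, the next being 99.5%), through -2:1D.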

How the results depend on the processing

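Of 129 alternatives over the 8 differences between tlr4ba-sg2 and tlr4bb-sg2, 112 kept the direction and stayed on the same side of the threshold, 16 changed direction and 1 passed it, with unadjusted p of 0.029 to 1. The indel share kept its sign in all 18, which reuse the same samples. It averaged 21.1% ± 32.2 at tlr4ba-sg2 and 44.2% ± 37.1 at tlr4bb-sg2 (SD, n = 4 each). The difference of -23.1 points was smaller than either SD (exact permutation p = 0.200, Benjamini-Hochberg p = 0.800). In fish 3, tlr4ba-sg2 was the higher by 1.99 points. On the log2 odds scale the differences were -1.60 for the frameshift share of indel reads and -2.08 for deletions touching the boundary, and mean length was 0.53 on the log2 scale. As listed, deletions with bases on both sides of the boundary differed by -10.5 points, and those within 3 bp by -1.12 points. The -10.5 points depend on the opposite placements of the sites. The deletions -2:2D and -4:4D at tlr4ba-sg2 and 1:2D at tlr4bb-sg2 can also be placed across the boundary. This difference was not computed with both sites placed alike. In fish 1 and 2 alone the differences were -2.97 points for insertions, -12.8 points for deletions touching the boundary and -0.036 effective alleles, and in fish 3 and 4 alone -0.061 points for the frameshift share of indel reads and 2.23 bp in length. With each sample left out in turn, the ranges were -39.2 to -11.3 points for indels, -28.6 to 1.19 for frameshifts of classified reads, -5.17 to 14.6 for frameshifts of indel reads, -1.15 to 15.8 for insertions, -1.41 to 2.17 bp for length, -2.12 to -1.06 bp for midpoint, -7.37 to 15.1 points for the boundary and -0.026 to 0.519 effective alleles. The causes of these changes beyond the samples left out were not tested. With alleles under 1% removed, tlr4ba-sg2 fish 4 had no indel left and dropped out of the measures taken within indel reads.

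With fish number as a replicate block, the mean differences are unchanged (-14.2 points for frameshifts of classified reads, exact sign-flip permutation p = 0.750), and 0 of 8 passed, in a design whose smallest p is 0.125. Each site had 4 samples, and the depth in molecules is unknown.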
